A study of Gallus gallus with 3 samples.

Results

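Cadherins, catenins, nectins, claudins, connexins, integrins and their closest junction partners were followed in granulosa cells of the laying hen at 3 stages of follicle growth. The genes were found by gene name, with a pattern for these families that was set with earlier results of these data known. The pattern takes no integrin alpha subunit whose name has a letter other than V after ITGA. Every entry whose gene name matched was taken, which gave 102 of the 19309 genes in the files. They comprised 17 cadherins, 12 protocadherins, 7 catenins, 2 desmosomal genes, 15 claudins, 7 other tight junction genes, 2 nectins, 14 connexins, 9 integrin alpha and 7 integrin beta subunits, and EPCAM. A further 9 entries share a name with these families but encode other proteins, and they are described last. The stages were the small 6 mm follicle before selection, the F5 follicle, which has begun its rapid growth, and the largest follicle, F1, shortly before ovulation. Granulosa cells were taken from ovaries of Gallus gallus aged 10 to 15 months for 6 mm, 10 to 16 months for F5 and 10 to 17 months for F1, per the labels, and no treatment or genotype is named. The upper ages step by 1 month from label to label, and whether the birds differed in age between stages is not known. The labels do not say how many birds or follicles were pooled.

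Library size was worked out from the FPKM values, as the smallest whole totals that fit their ratios. It came to 14923359 reads at 6 mm, 14137511 at F5 and 14086626 at F1. With 1 library per stage, no difference has a replicate check and no test was possible. Levels are FPKM, reads divided by the length of the gene and the size of the library. Ranges in brackets are exact 95% intervals for counting error and nothing else. In bulk RNA, fewer cells of a type and less RNA per cell cannot be told apart. FOXL2, a transcription factor of granulosa cells, had 675 FPKM at 6 mm, 967 at F5 and 1646 at F1, and FSHR, the FSH receptor, had 31.5, 42.4 and 16.1. All 14 granulosa markers found summed to 2161, 7926 and 9187, with INHA the largest part in F5 and F1 at 4631 and 3013. Single granulosa markers ran both ways. At least 2-fold, 8 were higher and 2 lower in F5 against 6 mm, and 5 higher and 4 lower in F1 against F5. AMH stood at 384, 18.2 and 0.779, FST at 290, 30.4 and 0.625, and INHBB at 321, 893 and 1.74. As the sums given next, markers of other cell types were highest in the 6 mm library. Single genes ran otherwise, among them CYP17A1 of theca (2.12, 3.66 and 0.173) and MSLN of surface epithelium (0.767, 4.69 and 2.89). CD79B of leukocytes did too (0.380, 0.668 and 1.21). The summed FPKM of 15 theca and smooth muscle markers was 852 in 6 mm, 64.8 in F5 and 24.0 in F1, with DCN at 0 in F5 and LUM, PDGFRA and CYP19A1 at 0 in F5 and F1. For 13 endothelial markers outside the junction genes the sums were 153, 73.2 and 33.0, with ESAM and SOX18 at 0 in F5 and F1. For 17 leukocyte markers they were 53.1, 9.57 and 3.86, with SPI1, RAC2 and IKZF1 at 0 in F5 and F1. For 11 oocyte markers they were 258, 48.9 and 2.15, and KIT was at 0 in F1. Surface epithelium markers other than junction genes and LRRN4 summed to 165, 11.5 and 4.31 over 8 genes, and the keratins KRT8, KRT18 and KRT5 had no reads in F5 or F1. The 10 erythrocyte markers other than HEMGN summed to 5.48, 0.575 and 0.258, with HBAA at 0 in F5 and F1, and HEMGN itself had 539, 846 and 336. HEMGN and LRRN4 were left out of these sums after their values were seen. LRRN4 ran the other way, at 16.6, 381 and 640.

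Cells of an epithelium hold together through junctions of several kinds. Cadherins bind the same cadherin on the neighbouring cell and are tied to actin by catenins, and nectins sit beside them. Desmosomes tie neighbours through intermediate filaments, claudins seal or open the gap between cells, connexins form channels between their cytoplasms, and integrins bind cells to the matrix. In the follicle the granulosa layer has no vessels of its own and lies between the basal lamina and the oocyte, and gap junctions couple its cells to each other.

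GJA1 and CDH2 were high in all 3 libraries and stayed within 2-fold as deposited. CDH3, CLDN1, PVRL3 and EPCAM were lower at each later stage, and CLDN5, JUP, CTNNA2 and CDH4 were far higher in F1 than in F5. Of the 102 genes, 59 reached an FPKM of 1 in any library, 11 had no reads in any, and 34 reached an FPKM of 10. The number at an FPKM of at least 1 was 56 in 6 mm, 51 in F5 and 43 in F1. Over all 19309 genes it was 12070, 11432 and 10283. Of all genes, 12812 reached an FPKM of 1 in any library and 7331 reached 10.

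**Figure D1:**
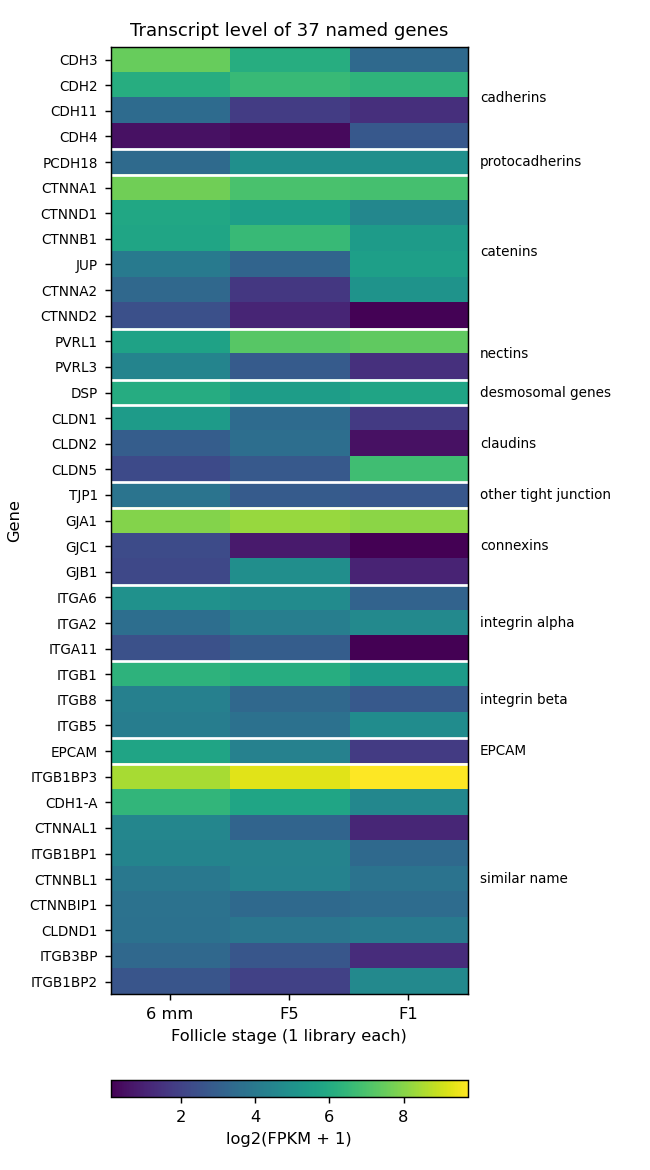
Heat map of log2(FPKM + 1) for 37 junction, integrin and similarly named genes that reached an FPKM of 10, led their family or differed at least 4-fold, with genes in rows by family and the 3 stages in columns, 1 library each. GJA1 is bright in all 3 columns, CDH3 and EPCAM darken from left to right, and CLDN5 is bright in F1 only.

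Differences between libraries are given as differences of log2(FPKM + 1), which understates those of low genes, over genes that reached an FPKM of 1 in 1 of the 2 libraries or both. In F5 against 6 mm, 57 of the 102 genes passed that filter. Of these, 4 (7.02%) were at least 2-fold higher in F5, where 7.64% of all genes were, and 15 (26.3%) were at least 2-fold lower, where 10.8% of all genes were. The higher genes were GJB1, PVRL1, PCDH18 and CDH22. The lower genes included CDH3, CDH5, CDH11, CDH13, CTNNA2, CTNND2, PVRL3, CLDN1, GJA4, GJC1, ITGA8, EPCAM and CTNNAL1. All 9 similarly named entries are among the 57, with 1 lower and 0 higher. The median log2 difference was -0.33 over the 57 genes and -0.13 over all 12611 genes that passed. Markers of other cell types were lower in F5 as well, namely 13 of 15 theca and smooth muscle genes, 7 of 11 endothelial, 5 of 7 leukocyte, 8 of 9 oocyte and 6 of 9 surface epithelium genes, 2 of the last being higher. Their part in the lower junction genes was not tested. Of the lower genes only CDH5 and EPCAM stand on those marker lists, and the lower marker counts above include them. Without the members that stand on them, 13 genes were lower and 4 higher. That count could change little and does not test the part of other cells.

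In F1 against F5, 53 of the 102 genes passed the filter, the 9 similarly named entries among them. At least 2-fold higher in F1 were 7 (13.2%), where 5.09% of all genes were, and at least 2-fold lower were 15 (28.3%), where 22.9% of all genes were. The higher genes included CDH4, CTNNA2, JUP, CLDN5, ITGB5 and ITGB1BP2. At least 4-fold higher were 6 of 53 (11.3%), where 1.43% of all genes were, and ITGB5 was not among them. The lower genes included CDH3, CDH22, CTNNB1, PVRL3, CLDN1, CLDN2, GJB1, ITGA6, ITGA11, EPCAM, CDH1-A, CTNNAL1, ITGB1BP1 and ITGB3BP. At least 4-fold lower were 7 (13.2%), where 5.2% of all genes were. Of the 9 similarly named entries, 1 was at least 2-fold higher and 4 at least 2-fold lower, and the counts above include them. The median of the 53 genes was -0.43, against -0.53 for all 11758 genes that passed. Scaling the libraries by the median of gene ratios moved the median of all genes to 0.0042. It gave 8 higher (15.1%) and 9 lower (17%) of the 53 genes, where 10.5% and 11.6% of all genes were.

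In F1 against 6 mm, 9 of 58 (15.5%) were at least 2-fold higher in F1, where 7.45% of all genes were, and 27 (46.6%) were at least 2-fold lower, where 32.8% were. The median of the 58 was -0.85, against -0.64 over all 12482 genes that passed. At 4-fold, 3 (5.17%) were higher and 13 (22.4%) lower, where 2.76% and 9.36% of all genes were. With the median-of-ratios scaling, 14 (24.1%) were at least 2-fold higher and 22 (37.9%) at least 2-fold lower, where 15.1% and 17.3% of all genes were. The as-deposited counts include the 9 similarly named entries, of which 2 were at least 2-fold higher and 4 at least 2-fold lower. The 3 comparisons share libraries and are not independent of each other. Of the 59 genes measured, 31 (52.5%) stood highest in 6 mm, 13 (22%) in F5 and 15 (25.4%) in F1. As deposited, 53%, 32.2% and 14.8% of all genes did. The median-of-ratios scaling gave 26, 9 and 24 of the 59 genes. It also raised the share of all genes higher in F1 than in 6 mm, from 7.45% to 15.1%. The as-deposited shares by stage are thus no background for the scaled counts.

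**Figure D2:**
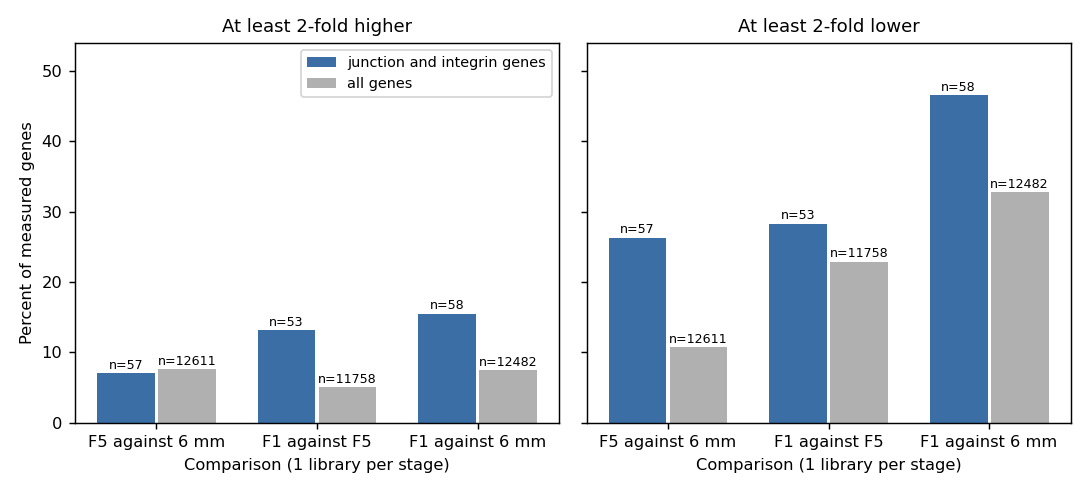
Bars give the percent of measured genes that were at least 2-fold higher (left) or lower (right) in each comparison of 2 libraries. Blue bars are the junction and integrin genes with the 9 similarly named entries, and grey bars all genes, with n the number measured. The widest gap is among lower genes in F5 against 6 mm, at 26.3% and 10.8%.

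Among the classical cadherins the leading gene changed. CDH3, P-cadherin (ENSGALG00000026291, chromosome 11, 18310977 to 18316940, the build behind these coordinates is not stated), had 181 FPKM at 6 mm, 68.3 at F5 and 9.53 at F1. CDH2, N-cadherin (ENSGALG00000015132, chromosome 2, 104449184 to 104562821), stood at 66.9, 94.8 and 81.6. CDH3 was thus high at the first stage and low at the last, and CDH2 stayed high. CDH3 was 2.65-fold lower in F5 than in 6 mm (2.54 to 2.77) and 7.16-fold lower in F1 than in F5 (6.45 to 7.97). CDH2 was 1.42-fold higher in F5 than in 6 mm (1.35 to 1.48) and 1.16-fold lower in F1 than in F5 (1.11 to 1.21), a step that turned to a log2 difference of 0.40 with the median-of-ratios scaling. In F1 against 6 mm the log2 difference of CDH2 was 0.28 as deposited, 1.01 with that scaling and -0.03 with libraries brought to an equal FPKM total. Within a library, where scaling plays no part, the CDH2 level was 0.370 times that of CDH3 in 6 mm (0.355 to 0.385), 1.39 times in F5 (1.33 to 1.46) and 8.56 times in F1 (7.72 to 9.52).

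CDH4, R-cadherin, stood at 0.427 in 6 mm, 0.275 in F5 and 5.67 in F1, 20.6-fold higher in F1 than in F5 (14.1 to 31.3), from 28 reads in F5 and 576 in F1. CDH11, a cadherin of mesenchymal cells, stood at 10.1, 2.53 and 1.64. It was 4.0-fold lower in F5 than in 6 mm (3.42 to 4.70), next to the lower theca and smooth muscle markers, and its link to them was not tested. CDH5, the cadherin of vessel walls, was at 1.69, 0.0468 and 0.0313, and CDH13, which has no cytoplasmic tail, at 4.09, 0.511 and 0.436. CDH22 stood at 0.0380 in 6 mm and 1.36 in F5 and had no reads in F1. A floor of 3 reads in F1 would be 45.2-fold below its F5 level, and the exact lower limit of the fold was 36.2. CDH1, E-cadherin, was under 1 in every library, at 0.945, 0.359 and 0.0401. The remaining 10 cadherins, CDH1 among them, stayed below an FPKM of 1, and 3 cadherins had no reads in any library. Summed over the 17 cadherins the level was 267 in 6 mm, 169 in F5 and 99.4 in F1, with CDH3 holding 67.9% of it in 6 mm and CDH2 82.1% in F1.

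Of the protocadherins, relatives of the cadherins with weaker adhesion, PCDH18 was the highest in all 3 libraries. It stood at 9.87 in 6 mm, 28.8 in F5 and 28.8 in F1, and was 2.92-fold higher in F5 than in 6 mm (2.67 to 3.19). The F1 and F5 levels of PCDH18 lay within counting error, and the median-of-ratios scaling put their log2 difference at 0.60. PCDHGC3 stayed between 4.37 and 5.42, and PCDH8 stood at 3.51, 1.38 and 0.238. PCDH12 and PCDH19 reached an FPKM of 1 as well, and the other 7 did not.

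**Figure D3:**
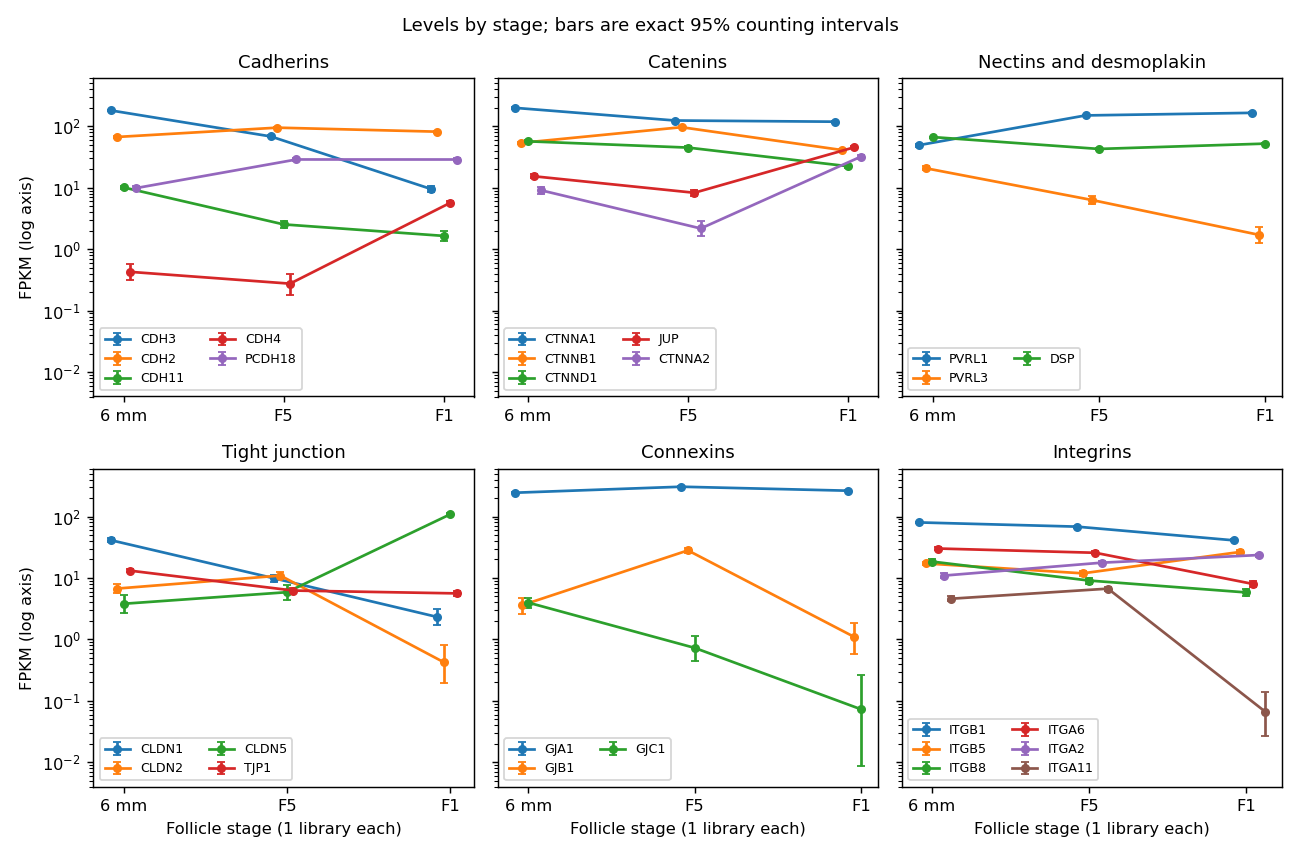
FPKM by stage on a log axis for the leading genes of each junction family, 1 library per stage, with bars for exact 95% counting intervals. The lines of CDH3 and CDH2 cross between 6 mm and F5, GJA1 stays between 244 and 306, and CLDN5 stands above CLDN1 in F1.

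Catenins join cadherins to actin. CTNNA1, alpha-catenin, was the highest catenin in all 3 libraries at 199 in 6 mm, 124 in F5 and 119 in F1. CTNNB1, beta-catenin, which also carries WNT signals to the nucleus, stood at 53.6, 96.5 and 41.0. It was thus highest in F5, 1.80-fold above 6 mm (1.71 to 1.89), and 2.35-fold lower in F1 than in F5 (2.23 to 2.48). The median-of-ratios scaling brought that last log2 difference to -0.61, within 2-fold, against -1.21 as deposited. CTNND1, p120 catenin, which keeps cadherins at the cell surface, stood at 56.8, 45.0 and 22.3.

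JUP, plakoglobin, the close relative of beta-catenin that serves adherens junctions and desmosomes alike (chromosome 27, 4658140 to 4665314), stood at 15.3 in 6 mm, 8.27 in F5 and 45.6 in F1. It was lowest in F5, where CTNNB1 was highest, and 5.51-fold higher in F1 than in F5 (4.92 to 6.18). The JUP level was 0.286 times that of CTNNB1 in 6 mm (0.263 to 0.311), 0.0857 times in F5 (0.0768 to 0.0955) and 1.11 times in F1 (1.04 to 1.18). CTNNA2, the alpha-catenin known from neurons (chromosome 4, 86948459 to 87057215), followed the same order, at 9.11, 2.17 and 32.0. It was 4.198-fold lower in F5 than in 6 mm (3.09 to 5.81) and 14.7-fold higher in F1 than in F5 (11.1 to 19.98). CTNND2, a delta-catenin also known from neurons, stood at 4.48, 1.12 and 0.104. CTNNA3, the alpha-catenin of heart and testis, stayed below 1 throughout.

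The 2 nectins, immunoglobulin-type adhesion molecules, moved apart. PVRL1, nectin-1, stood at 49.3 in 6 mm, 150 in F5 and 165 in F1. PVRL3, nectin-3, which binds nectin-1 across the cell border in mammals, stood at 20.7, 6.29 and 1.72. In F5 against 6 mm, PVRL1 was 3.04-fold higher (2.84 to 3.25) and PVRL3 3.29-fold lower (2.77 to 3.92). In F1 against F5 the log2 difference of PVRL3 was -1.43, and -0.98 with the median-of-ratios scaling. The PVRL1 level was 2.38 times that of PVRL3 in 6 mm (2.16 to 2.64), 23.8 times in F5 (20.5 to 27.9) and 96.3 times in F1 (72.3 to 131).

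Of 14 linkers of the adherens junction found by name, 13 were measured in F5 against 6 mm. Of these, 2 were higher and 1 lower (median -0.05), where 7.64% and 10.8% of all genes were. In F1 against F5, 1 of 13 was higher and 4 lower (median -0.37), where 5.09% and 22.9% of all genes were. ACTN1, an actin-bundling protein, stood at 30.0 in 6 mm, 81.6 in F5 and 47.5 in F1. SORBS2, an adaptor of actin-based adhesions, was at 29.7 in F1 against 3.09 in F5, and ARVCF, a catenin of the p120 family, at 7.51 against 19.1. VCL, vinculin, was at 11.6 in F5 against 18.3 in 6 mm.

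**Figure D4:**
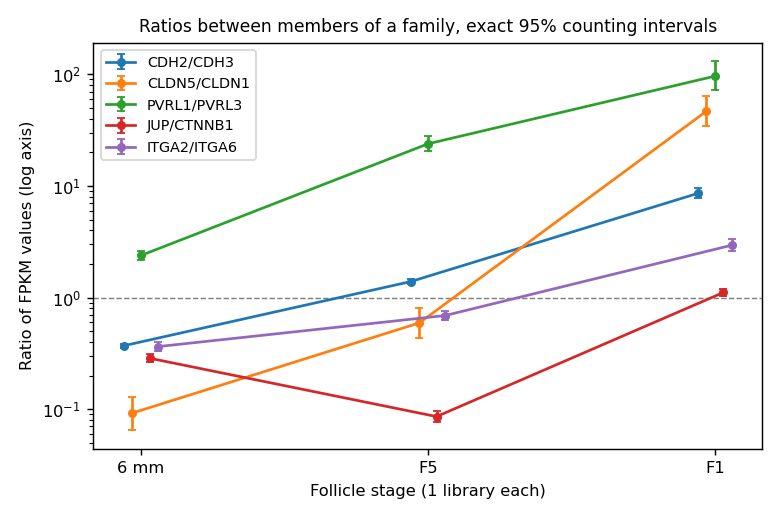
Ratios of FPKM values between 2 members of a family within each library, on a log axis, with exact 95% counting intervals and a dashed line at equal levels. CDH2/CDH3 is 0.370 in 6 mm, 1.39 in F5 and 8.56 in F1, CLDN5/CLDN1 is 0.0923, 0.592 and 46.6, and JUP/CTNNB1 is lowest in F5 at 0.0857.

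DSP, desmoplakin, which anchors intermediate filaments in the desmosome, stood at 66.7 in 6 mm, 42.7 in F5 and 52.1 in F1, within 2-fold at every step. The desmosomal cadherin DSG2 was low in all 3 libraries, at 0.655, 0.475 and 0.781. Of 9 desmosome partners measured in F5 against 6 mm, filament proteins and others, 8 were lower and 0 higher. Of all genes, 10.8% were lower and 7.64% higher. KRT19 was at 3.17 in F5 against 91.0 in 6 mm, DES at 0.157 against 61.7, KRT14 at 0.400 against 19.7, and KRT8 had no reads in F5, against 11.02 in 6 mm. These genes are markers of surface epithelium and of smooth muscle too. PKP2, plakophilin-2, was at 32.0 in F1 against 24.9 in F5.

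Claudins set what a tight junction lets through, and the leading gene in F1 was not that of 6 mm. CLDN1, a sealing claudin of epithelia, stood at 41.3 in 6 mm, 9.91 in F5 and 2.33 in F1. CLDN2, which forms a pore for small cations, stood at 6.73, 10.9 and 0.428. CLDN5, a claudin best known from the blood-brain barrier (ENSGALG00000001621, chromosome 15, 694098 to 694748), stood at 3.81, 5.87 and 108. Thus CLDN1 led in 6 mm with 67.6% of the summed FPKM of 15 claudins, and CLDN5 in F1 with 89.6%. In F5 CLDN2 (9.58 to 12.45), CLDN1 (8.59 to 11.4) and CLDN12 (8.15 to 11.1) had overlapping counting intervals, so no claudin led beyond counting error. The sum itself was 61.1 in 6 mm, 38.7 in F5 and 121 in F1.

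CLDN1 was 4.17-fold lower in F5 than in 6 mm (3.57 to 4.88) and 4.26-fold lower in F1 than in F5 (3.09 to 5.99). CLDN2 was 25.6-fold lower in F1 than in F5 (13.2 to 56.6), from 9 reads in F1 and 231 in F5. CLDN5 was 18.5-fold higher in F1 than in F5 (14.0 to 24.8), from 994 reads in F1 and 54 in F5, and ranked 594 of 19309 genes in F1. Its level was 0.0923 times that of CLDN1 in 6 mm (0.0645 to 0.128) and 46.6 times in F1 (34.8 to 63.9).

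CLDN5 is also a marker of endothelium. The other 14 endothelial markers, CDH5 among them, summed to 155 in 6 mm, 73.2 in F5 and 33.1 in F1, with a median of 1.85, 0.107 and 0.0398, and ESAM, SOX18, TEK and VWF had no reads in F1. The highest of them in F1 was EGFL7 at 26.0. EMCN, a mucin of endothelial cells, stood at 52.6 in 6 mm, 7.56 in F5 and 0.344 in F1.

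**Figure D5:**
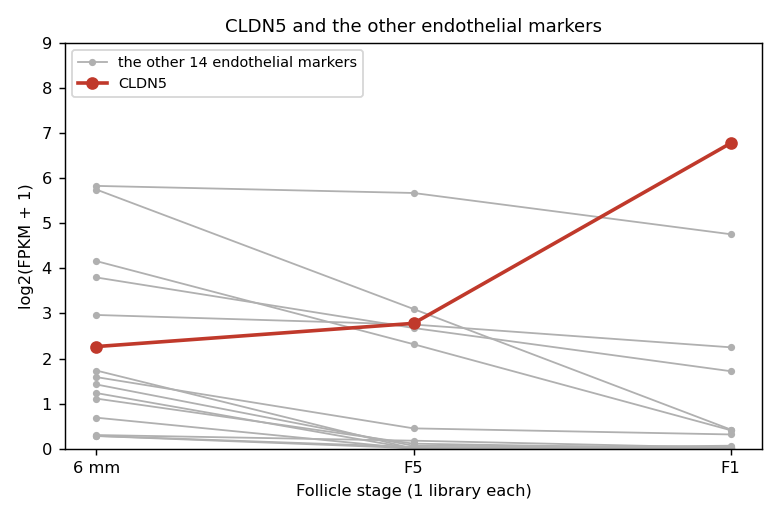
CLDN5 (red) and the other 14 endothelial markers (grey) as log2(FPKM + 1) by stage, 1 library each. CLDN5 stands at an FPKM of 108 in F1, and every other marker is lower in F1 than in 6 mm.

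The other claudins were low. CLDN12, an atypical claudin, stayed between 6.42 and 9.53, and CLDN10 and CLDN11 reached an FPKM of 1 in a library and stayed within 2-fold on the log2(FPKM + 1) scale. The other 9 claudins stayed below 1, and 3 of all claudins had no reads. CLDN4 had reads in F1 only, at 0.933.

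TJP1, the scaffold protein known as ZO-1 that holds claudins to actin, stood at 13.1 in 6 mm, 6.24 in F5 and 5.62 in F1. OCLN, occludin, stood at 9.28, 4.63 and 2.03 and was 4.58-fold lower in F1 than in 6 mm (3.15 to 6.84). TJP3 stayed between 4.69 and 6.49, CGN, cingulin, between 1.63 and 2.48, and MARVELD2, tricellulin, between 1.04 and 2.57.

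Of 30 further tight junction partners, 27 were measured in F5 against 6 mm. Of these, 1 was higher and 7 lower (median -0.40), where 7.64% and 10.8% of all genes were. In F1 against F5, 2 of 24 were higher and 10 lower (median -0.65), where 5.09% and 22.9% of all genes were. JAM2, a junctional adhesion molecule, stood at 49.6 in 6 mm, 24.3 in F5 and 2.70 in F1, and CLMP, a related molecule, at 2.68 in F1 against 20.3 in F5. PARD3, a polarity protein that gathers at tight junctions, ran the other way, at 3.23 in 6 mm, 5.95 in F5 and 23.9 in F1. PRKCI, the atypical protein kinase C of the same complex, stood at 17.9, 5.96 and 2.31. In F1 against 6 mm, 17 of 26 were lower and 2 higher, where 32.8% and 7.45% of all genes were. AMOTL1, which binds actin at junctions, was at 1.38 in F1 against 19.0 in 6 mm, and MPDZ, a scaffold, was at 6.05 in F5 against 19.3 in 6 mm. TJAP1 was at 9.15 in F1 against 21.8 in F5, and JAM3 at 16.4 in F5 against 40.7 in 6 mm.

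GJA1, connexin Cx43, dominated the 14 named connexins. It stood at 244 in 6 mm, 306 in F5 and 263 in F1 (ENSGALG00000014873, chromosome 3, 61222961 to 61230461), or 91.3%, 87.6% and 98.9% of the summed FPKM of 14 connexins. An entry without a gene name, annotated as the connexin GJD3, is outside that sum and stood at 6.40, 96.6 and 6.22. GJA1 ranked 228, 214 and 252 among all genes. GJA1 was 1.25-fold higher in F5 than in 6 mm (1.21 to 1.297) and 1.16-fold lower in F1 than in F5 (1.12 to 1.20), and the step between F5 and F1 turned to a log2 difference of 0.40 with the median-of-ratios scaling. In F1 against 6 mm its log2 difference was 0.11, which turned to -0.21 after scaling every library to an equal FPKM total.

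GJB1 was highest in F5. GJB1, Cx32, known from liver and Schwann cells (chromosome 4, 2294855 to 2295694), stood at 3.59 in 6 mm, 28.1 in F5 and 1.10 in F1. It was 7.83-fold higher in F5 than in 6 mm (5.73 to 10.9), the only member at least 4-fold higher in that comparison, where 2.09% of all genes were and 1.96% were 4-fold lower. It was 25.6-fold lower in F1 than in F5 (14.8 to 48.6). At its highest, in F5, GJB1 had 0.0920 times the level of GJA1 (0.0822 to 0.103).

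GJC1 and GJA4 were highest in 6 mm. GJC1, which RefSeq lists as a synonym of GJC3, stood at 3.97, 0.729 and 0.0732, from 115, 20 and 2 reads. GJA4, Cx37, which in the mouse joins oocyte and granulosa cells and is also made by endothelium, stood at 5.35, 1.39 and 0.862. Of the 14 connexins 8 stayed below 1, and 5 connexins had no reads in any library. The oocyte and endothelial markers were highest in 6 mm as well, and their part in these levels was not tested. Of 9 gap junction partners and pannexins, 2 were at least 2-fold lower in F5 than in 6 mm and 0 higher. Of all genes, 10.8% were lower and 7.64% higher. In F1 against F5 7 of these partners passed the filter, NOV not among them, and 0 were 2-fold higher or lower. Of all genes, 5.09% were higher and 22.9% lower there. CASK stood at 53.3 in 6 mm, 40.8 in F5 and 42.0 in F1 and PRKACB at 8.17, 8.86 and 11.2. NOV, a matricellular protein that binds connexins, was at 0.899 in F5 against 23.4 in 6 mm.

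Among the integrins, ITGB1, the beta subunit shared by most receptors for collagen, laminin and fibronectin, was the highest beta subunit at each stage. It stood at 80.2 in 6 mm, 68.5 in F5 and 41.0 in F1, 1.67-fold lower in F1 than in F5 (1.58 to 1.76). The log2 difference of that step was -0.73, where the median over all genes was -0.53. ITGB5, which pairs with ITGAV, stood at 17.3, 11.9 and 26.5 and was 2.23-fold higher in F1 than in F5 (2.004 to 2.48), a log2 difference of 1.09 that came to 0.98 with an equal FPKM total per library. ITGB8, which pairs with ITGAV and activates latent TGF-beta, stood at 18.5, 9.08 and 5.82. ITGAV itself stayed between 4.37 and 7.09. The platelet and leukocyte subunits ITGB3 and ITGB2 were low at 1.32 and 0.641 in 6 mm, and ITGB2 had no reads in F1. ITGB4 and ITGB6 stayed below 1.

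ITGA6, a laminin receptor subunit, stood at 30.2 in 6 mm, 25.7 in F5 and 8.02 in F1 and was 3.21-fold lower in F1 than in F5 (2.85 to 3.62), a call that ended with the median-of-ratios scaling. ITGA2, a collagen receptor subunit, stood at 10.96, 17.7 and 23.6, higher at each later stage, and was 2.16-fold higher in F1 than in 6 mm (1.96 to 2.38), a log2 difference of 1.04 that came to 0.74 with an equal FPKM total per library. ITGA6 led the alpha subunits in 6 mm and F5 and ITGA2 in F1. The ITGA2 level was 0.363 times that of ITGA6 in 6 mm (0.330 to 0.400), 0.690 times in F5 (0.632 to 0.752) and 2.95 times in F1 (2.62 to 3.32). ITGA11, another collagen receptor subunit, stood at 4.60, 6.71 and 0.0668 and was 100.4-fold lower in F1 than in F5 (48.45 to 251), from 7 reads in F1 and 705 in F5. ITGA11 overlaps FEM1B on the opposite strand, which stood at 28.2, 24.1 and 15.5. ITGA1 stood at 7.10, 9.595 and 6.44, but its entry also carries the domains of pelota, a protein of translation, so its reads cannot be assigned to the integrin alone. ITGA8 stood at 1.87 and 0.147 in 6 mm and F5 and had no reads in F1. The floor in F1 would be 42.2-fold below its 6 mm level, with an exact lower limit of 33.8. The other 3 alpha subunits, ITGA9, ITGA4 and ITGA2B, stayed below 1.

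Of the proteins that integrins gather inside the cell, BCAR1, the docking protein p130Cas, stood at 30.0 in 6 mm, 198 in F5 and 440 in F1, and PXN, paxillin, was at 119 in F5 against 43.2 in 6 mm. CAV1, a caveolin, stood at 22.8 in 6 mm and 1.42 in F1 and had no reads in F5. Of the 24 members of this list measured in F5 against 6 mm, 3 were higher and 2 lower (median -0.28). Of all genes, 7.64% were higher and 10.8% lower. Of 23 on the list in F1 against F5, 4 were higher and 3 lower (median -0.11), where 5.09% and 22.9% of all genes were. LIMS1, an adaptor of integrin-linked kinase, was at 17.8 in F1 against 50.4 in F5, and RSU1, its partner, at 9.09 against 17.2. FERMT1, a kindlin that activates integrins, was at 10.6 in F5 against 3.90 in 6 mm, and PARVB at 1.62 in F1 against 12.7 in 6 mm.

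Of 27 integrin ligands measured in F5 against 6 mm, 4 were higher and 7 lower (median -0.41, and -0.13 over all genes). Of all genes, 7.64% were higher and 10.8% lower. Of 25 ligands in F1 against F5, 3 were higher and 7 lower (median -0.06, and -0.53 over all genes). Of all genes, 5.09% were higher and 22.9% lower there. COL3A1 and COL1A2, collagens that are also theca markers, were at 0.790 and 10.5 in F5 against 185 and 168 in 6 mm. NID2, a basement membrane protein, stood at 21.8 in 6 mm, 154 in F5 and 255 in F1. NPNT, nephronectin, was at 16.6 in F1 against 50.05 in F5, and COL4A3, a basal lamina collagen, at 118 against 251. TNN, a tenascin, was at 11.9 in F1 against 1.39 in F5, and CTGF at 93.3 against 34.8. COL4A1 was at 2.45 in F5 against 10.7 in 6 mm.

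EPCAM, an epithelial cell adhesion molecule, stood at 52.1 in 6 mm, 19.2 in F5 and 2.40 in F1. It was 2.71-fold lower in F5 than in 6 mm (2.42 to 3.04) and 7.99-fold lower in F1 than in F5 (5.96 to 10.9). It is a marker of surface epithelium. Of 9 genes measured on that list, EPCAM among them, 6 were at least 2-fold lower in F5 than in 6 mm and 2 higher. The counts in F1 against 6 mm were the same. LRRN4, at 16.6, 381 and 640, and MSLN, at 0.767, 4.69 and 2.89, were the 2 higher genes. KRT19 stood at 91.0, 3.17 and 0.354 and WT1 at 31.7, 2.21 and 0.579, and KRT8 and KRT18 had no reads in F5 or F1. Their part in the EPCAM levels was not tested.

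The 9 entries with a similar name were all measured. ITGB1BP3, which the KEGG annotation of the files gives an enzyme number and which is known as a nicotinamide riboside kinase, was the highest gene of the whole set at 353 in 6 mm, 638 in F5 and 854 in F1, ranked 88 of all genes in F1. ITGB1BP2, melusin, a chaperone of muscle that binds the integrin beta 1 tail, stood at 5.22, 2.90 and 23.9 and was 8.25-fold higher in F1 than in F5 (6.16 to 11.3). ITGB1BP1, which keeps integrin beta 1 inactive, stood at 21.0, 20.4 and 9.52. CDH1-A, which the KEGG annotation names a fizzy-related protein, an activator of the anaphase-promoting complex and no cadherin, stood at 86.5, 52.8 and 22.8. ITGB3BP, a kinetochore protein, stood at 9.197, 5.46 and 1.48. CTNNAL1, alpha-catulin, stood at 22.0, 8.16 and 1.17 and was 6.95-fold lower in F1 than in F5 (4.93 to 10.04). CTNNBL1, a splicing protein, stayed between 12.8 and 19.6, CTNNBIP1, which keeps beta-catenin from its DNA-binding partners, between 9.46 and 12.3, and CLDND1 between 11.8 and 15.4. In F1 against F5 the lower calls of CDH1-A, ITGB1BP1 and ITGB3BP ended with the median-of-ratios scaling.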

How the data were processed

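Messenger RNA was enriched by poly-A tails and copied from random hexamers, per the labels' protocols. The submitters' processing notes name TopHat2 (2.0.12) and HTSeq (0.6.1). The authors deposited FPKM values per gene for each of 3 libraries. The build and the use of strand are not given in the sources used here. Of each file, 2 lines without a value were not used. The FPKM of all 17019 genes with reads were whole reads over a whole length and library total (largest relative deviation 1.92e-14), and the smallest whole numbers that fit served for the intervals, which are slightly too wide. They came to 94.7% of the total in 6 mm, 93.8% in F5 and 94.8% in F1.

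Members, lists and named genes were chosen with earlier results of these data known. Named were genes with an FPKM of 10, leaders of a family and genes 4-fold different. Other genes named were chosen after their values were seen. Of the 102 names, 96 are RefSeq symbols and 2 synonyms (GJC1 as one of GJC3). Overlapping entries were found for 16 members. Fold intervals are conditional binomial and level intervals Poisson, and floors are 3 reads. Genes were found by gene name alone. A few members are counted but not reported by name. Calculations used Python 3.11.15, numpy 2.4.6, scipy 1.17.1 and pandas 2.3.3 and were tested on simulated data. Alternatives covered pseudocount, filter, scaling and threshold.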

Additional observations from a re-analysis of the deposited data

Results flagged for a closer look

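Entries without a gene name whose KEGG annotation names a junction gene were outside the rule for members, and 5 of them had more reads than the floor of 3. GJD3, a connexin (ENSGALG00000011233), had 6.404 FPKM at 6 mm, 96.6 at F5 and 6.22 at F1, above every named connexin but GJA1 in F5. CTNNA2 (ENSGALG00000015966), a second entry beside the named one on chromosome 4, stood at 6.48, 2.54 and 26.1, the same order as the named entry at 9.11, 2.17 and 32.0. MARVELD3 (ENSGALG00000000882) stood at 18.2, 4.52 and 3.16, where the entry with that gene name stayed below 1 in every library. PCDH20 (ENSGALG00000016934) stood at 1.67, 6.74 and 3.99. CDH23 (ENSGALG00000004653) stood at 1.99, 0.221 and 0.0689.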

How the results depend on the processing

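No paired analysis was possible because each stage had 1 library, and no library could be left out. Scaling by the median of ratios left 9 members (17%) lower in F1 than in F5 (15 as deposited), where 11.6% of all genes were. It turned that median to 0.0036, and that of all genes to 0.0042. In F1 against 6 mm it gave 14 higher (24.1%, 9 as deposited), where 15.1% of all genes were, with a median of -0.23, and -0.0054 over all genes. It put 24 members highest in F1, and the matching share of all genes is not given here. With a pseudocount of 5, 7 members (12.3%) were lower in F5 than in 6 mm, where 3.62% of all genes were. With the same pseudocount 13 (22.4%) were lower in F1 than in 6 mm (median -0.36), where 14.3% of all genes were (median -0.37). With a filter at an FPKM of 5, 9 (20.9%) were lower in F5 than in 6 mm, where 9.07% of all genes were. With that filter 17 (40.5%) were lower in F1 than in 6 mm (median -0.36), where 31.7% of all genes were (median -0.61). As deposited these medians were -0.85 and -0.64. The members' median thus lay below that of all genes as deposited, and not with this filter or that pseudocount. The filter at an FPKM of 5 left 20 members highest in 6 mm. The matching share of all genes is not given here, so that count has no background. Without a filter the medians were -0.14 for F1 against F5 and -0.31 for F1 against 6 mm, and -0.35 and -0.45 over all genes. At 4-fold, 1 member was higher and 0 lower in F5 against 6 mm, where 2.09% and 1.96% of all genes were. At that threshold 7 were lower in F1 against F5, where 5.2% of all genes were. For F1 against 6 mm, 3 were higher and 13 lower, where 2.76% and 9.36% were. Requiring that the counting interval exclude equal levels changed no count. Most called members had enough reads that this requirement could change little, and it covers counting error only. Of the 692 values of named genes under these settings, 629 kept their direction and side of 2-fold, 63 did not, and 0 genes called 2-fold different turned. A filter does not alter the log2 difference of a gene. The 107 values with the filter at an FPKM of 5 and the 117 without a filter thus could not move. Under the median-of-ratios scaling, 28 moved and 89 did not. Leaving out the 9 similarly named entries, or members on marker lists, both chosen after seeing the data, kept every count within 1.5 times. Few of the called members stand on marker lists, so leaving those out could move the counts little.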
